A study of Mus musculus with 8 samples.

Results

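The GTPases of immunity-associated proteins (GIMAP) are a family of guanine nucleotide-binding proteins found mainly in lymphocytes. The 8 genes described here are Gimap1, Gimap3, Gimap4, Gimap5, Gimap6, Gimap7, Gimap8 and Gimap9. They were taken by gene symbol from the 11723 genes of the deposited expression table, and all 8 were present. RNA was sequenced from flow-sorted CD8 T cells taken from the peripheral lymph nodes of BALB/c mice, an inbred strain, aged 12 days. Wild-type (WT) mice gave 4 libraries, from pools of 5, 5, 3 and 2 mice. The other 4 came from mice lacking the gene for interleukin-2 (IL-2-KO), a growth factor made by T cells, with no pooling stated. The design text of the series adds 2 points that the sample labels do not carry: it lists spleen beside lymph node, and it writes the control genotype as WT/HET.

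GIMAP proteins share a GTP-binding domain, and several sit on intracellular membranes through a hydrophobic tail. Loss of Gimap5 causes a lack of T cells in rats and mice, and loss of Gimap1 removes most mature lymphocytes, which is why the family is linked to the survival of resting lymphocytes. Other members have been tied to the timing of cell death (Gimap4), to autophagy (Gimap6) and to GTP hydrolysis on dimerization (Gimap7).

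The summed level of the family overlapped between IL-2-KO and WT cells, and so did the level of each of its members. Levels are CPM, counts per 1 M (mega) of the TMM-scaled library, and each ± is an SD over the n = 4 libraries of a group. Gimap7 rose 1.48-fold in IL-2-KO, from 79.0 ± 14.8 to 117 ± 15.5 CPM, and was the only member of the 8 that passed (limma on log2(CPM + 0.5), Benjamini-Hochberg adjusted p = 0.0159 over the 11530 genes tested, threshold 0.05). Gimap4 stood 1.31-fold higher (989 ± 149 to 1293 ± 143 CPM) and missed the threshold (limma adjusted p = 0.056). None of the 8 passed as lower. Of all genes tested 19.2% passed, 11.1% as higher and 8.03% as lower. The 1 of 8 called as higher (12.5%) was near the 11.1% of all genes, so the count is no result about the family. The median log2 change was 0.01 for the 8 members and -0.01 for all genes tested.

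**Figure D1:**
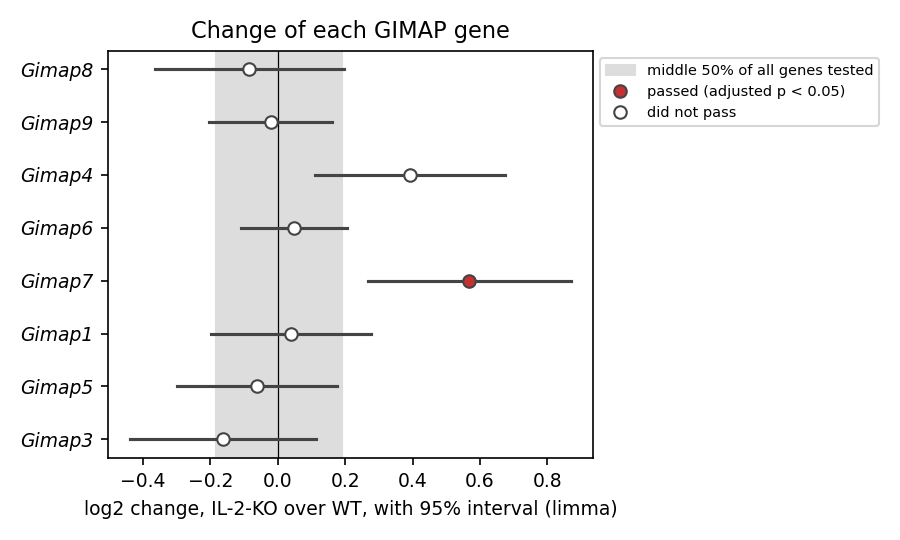
Log2 change of IL-2-KO over WT for the 8 GIMAP genes (points) with 95% intervals from limma, in their order along chromosome 6; the grey band holds the middle 50% of all 11530 genes tested. Gimap7 passed the test and Gimap4 missed the threshold, while the other 6 intervals include 0.

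The 8 genes lie side by side on chromosome 6 (GRCm38) between 48647186, the start of Gimap8, and 48770851, the end of Gimap3. Gimap4 occupies 48684578 to 48692062 and Gimap7 48718621 to 48724636, both on the plus strand. Gimap5 lies at 48746197 to 48754200 on the plus strand, and Gimap3 at 48764464 to 48770851 on the minus strand. The remaining members are Gimap9 (48676121 to 48679116, plus strand), Gimap6 (48701583 to 48708244, minus strand) and Gimap1 (48739047 to 48743795, plus strand), and Gimap8 ends at 48660875 on the plus strand. The promoters of Gimap4, Gimap7, Gimap3 and Gimap5 are shown because Gimap4 and Gimap7 are the members that stood higher and Gimap3 and Gimap5 are the closest relatives within the family. Each line holds the 250 bases before the RefSeq start (GRCm38.p6), 5′ to 3′ on the gene's strand. Capitals mark matches to 4 short motifs searched on both strands: TGTGGT (RUNX factors), GGAAGT (ETS factors), GTAAACA (FOXO factors) and TTCNNNGAA (STAT factors).
Gimap4, chr6:48684328-48684577, plus strand: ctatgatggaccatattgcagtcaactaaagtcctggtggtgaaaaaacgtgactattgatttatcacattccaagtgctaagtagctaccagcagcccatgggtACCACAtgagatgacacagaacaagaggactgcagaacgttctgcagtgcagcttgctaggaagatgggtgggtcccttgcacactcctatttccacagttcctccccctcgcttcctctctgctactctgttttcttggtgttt
Gimap7, chr6:48718371-48718620, plus strand: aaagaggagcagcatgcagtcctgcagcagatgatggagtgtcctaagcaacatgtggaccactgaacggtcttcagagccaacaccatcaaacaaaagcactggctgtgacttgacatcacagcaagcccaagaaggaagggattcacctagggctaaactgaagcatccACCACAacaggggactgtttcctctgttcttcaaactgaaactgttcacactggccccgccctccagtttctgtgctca
Gimap3, chr6:48770852-48771101, minus strand: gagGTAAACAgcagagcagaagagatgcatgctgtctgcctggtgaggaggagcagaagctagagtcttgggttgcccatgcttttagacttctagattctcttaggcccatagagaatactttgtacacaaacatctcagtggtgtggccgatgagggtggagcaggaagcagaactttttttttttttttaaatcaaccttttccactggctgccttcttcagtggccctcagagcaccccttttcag
Gimap5, chr6:48745947-48746196, plus strand: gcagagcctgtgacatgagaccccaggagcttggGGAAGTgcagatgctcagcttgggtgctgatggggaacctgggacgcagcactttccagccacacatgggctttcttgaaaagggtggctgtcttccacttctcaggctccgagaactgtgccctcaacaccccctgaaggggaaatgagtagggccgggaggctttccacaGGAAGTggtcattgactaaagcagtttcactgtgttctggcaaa

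Gimap4 and Gimap7 each held 1 match to the RUNX motif, in both cases as its reverse complement ACCACA, at 145 and 79 bases before the start. Gimap1 also held 1 such match, 95 bases before its start. Over all 32817 promoter windows of this length 14.04% held the RUNX motif, 19.7% the ETS motif, 3.16% the FOXO motif and 7.01% the STAT motif. Gimap3 held a FOXO match and Gimap5 a pair of ETS matches. Gimap6 held 1 ETS and 1 STAT match, 1 of the 2 annotated starts of Gimap8 had a STAT match, and Gimap9 held none of the 4 motifs. A match is a description of the letters and not evidence of binding.

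The libraries came from 0.4 to 115 M sorted cells, with 2 libraries of each group above 2 M and 2 below. They held 11.9 to 18.4 M counts over the listed genes, so 1 CPM rests on 11.9 to 18.6 counts. The 8 members rest on 810 to 26890 counts each per library, and counting error is at most 3.52% of a value (Gimap7 in WT replicate 2), covering counting error only. Il2 does not check the genotype labels, because a gene-level value does not show which exons were read: it stood at 5.72, 5.65, 6.25 and 5.91 CPM in WT replicates 1 to 4 and at 5.13, 7.32, 8.42 and 4.25 CPM in IL-2-KO replicates 1 to 4 (limma adjusted p = 0.907). The labelled cell type had its defining markers, with Cd8a at 1479 to 1979 CPM in all 8 libraries and 0 of 11 CD8 T cell identity genes passing. WT replicate 2 and IL-2-KO replicate 3 stood apart. The 4 listed genes of the myeloid and dendritic cell list of 14 summed to 52.0 and 318 CPM there, against 3.54 to 7.28 in the other 6 libraries. Most of both sums was Lyz2, at 40.0 and 296 CPM. S100a9 and Itgam were also at the highest of their group there, Itgam narrowly in WT (4.32 against 3.84 CPM in WT replicate 1). Cd4 stood at 38.6 and 45.5 CPM against 0.461 to 2.48. Their part in the results was not tested. The fitted changes of Gimap7 and Gimap4 and the counts of the gene lists are also given with these 2 libraries left out, while levels per length, shares and correlations are over all 8 libraries. In bulk libraries a lower share of a cell type and less RNA per cell cannot be told apart.

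Gimap7, whose protein hydrolyses GTP when it dimerizes, held 79.0, 67.8, 69.1 and 99.9 CPM in WT replicates 1 to 4. IL-2-KO replicates 1 to 4 held 114, 119, 98.6 and 136 CPM. The IL-2-KO values were higher apart from the overlap of the lowest of them, replicate 3, with the highest WT value, replicate 4. The log2 change was 0.57 (95% confidence interval 0.27 to 0.87). It was 0.58 with IL-2-KO replicate 3 and WT replicate 2 left out (limma adjusted p = 0.0214). The call was lost without WT replicate 3 (log2 change 0.51, limma adjusted p = 0.0574), with trends in GC content and transcript length taken out (0.43, adjusted p = 0.0941), and in the 4 libraries of under 2 M cells alone (0.48, adjusted p = 0.313). In the 4 libraries of over 2 M cells it was kept (0.66, adjusted p = 0.0489).

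Gimap4, linked to the timing of lymphocyte death, was among the most abundant members. WT replicates 1 to 4 held 1072, 856, 871 and 1157 CPM. IL-2-KO replicates 1 to 4 held 1311, 1410, 1087 and 1362 CPM. Only IL-2-KO replicate 3 lay within the WT range. The log2 change was 0.39 (interval 0.11 to 0.67), and it passed with IL-2-KO replicate 3 and WT replicate 2 left out (0.41, limma adjusted p = 0.0426), without IL-2-KO replicate 3 alone (0.47, adjusted p = 0.0288), without WT replicate 4 (0.47, adjusted p = 0.0491) and with array weights (0.39, adjusted p = 0.0153). It was 0.51 in the libraries of over 2 M cells (adjusted p = 0.269) and 0.28 in those of under 2 M (adjusted p = 0.478). Over its 22 alternatives the log2 change ran from 0.28 to 0.51 and the adjusted p from 0.0153 to 0.478.

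Gimap3 and Gimap5 are the paralog pair most often tied to T cell survival. Their coding sequences were 90.7% identical over 895 aligned bases, against 68.8% for the next closest pair, Gimap7 and Gimap9. Reads in the identical stretches can be shared between them: 190 of the 2528 different 50-base words in the Gimap3 transcripts (7.52%) also occur in Gimap5 (4.53% of its words), while no other pair of members shares any. Gimap3 held 1335, 1068, 1410 and 1620 CPM in WT replicates 1 to 4 and 1231, 1213, 1108 and 1255 CPM in IL-2-KO replicates 1 to 4. All IL-2-KO values lay between the lowest WT value and the remaining WT values. The log2 change was -0.16 (interval -0.44 to 0.11, limma adjusted p = 0.401). It passed as lower with array weights only (-0.28, adjusted p = 0.0426), and was 0.03 in the libraries of over 2 M cells (adjusted p = 0.967) and -0.36 in those of under 2 M (adjusted p = 0.268).

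Gimap5 was lower per length than its paralog in every library. It held 174, 140, 161 and 186 CPM in WT replicates 1 to 4 and 160, 167, 134 and 172 CPM in IL-2-KO replicates 1 to 4, and the groups overlapped widely. The log2 change was -0.06 (interval -0.30 to 0.17, limma adjusted p = 0.726), so the interval leaves room for changes from 0.813-fold to 1.13-fold. The ratio of Gimap3 to Gimap5 within a library, in CPM, was 7.66, 7.63, 8.76 and 8.71 in WT replicates 1 to 4 and 7.69, 7.28, 8.26 and 7.31 in IL-2-KO replicates 1 to 4. The log2 ratio differed by -0.10 (IL-2-KO minus WT), within the spread of the libraries (exact two-sided permutation p = 0.229 over 70 assignments).

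**Figure D2:**
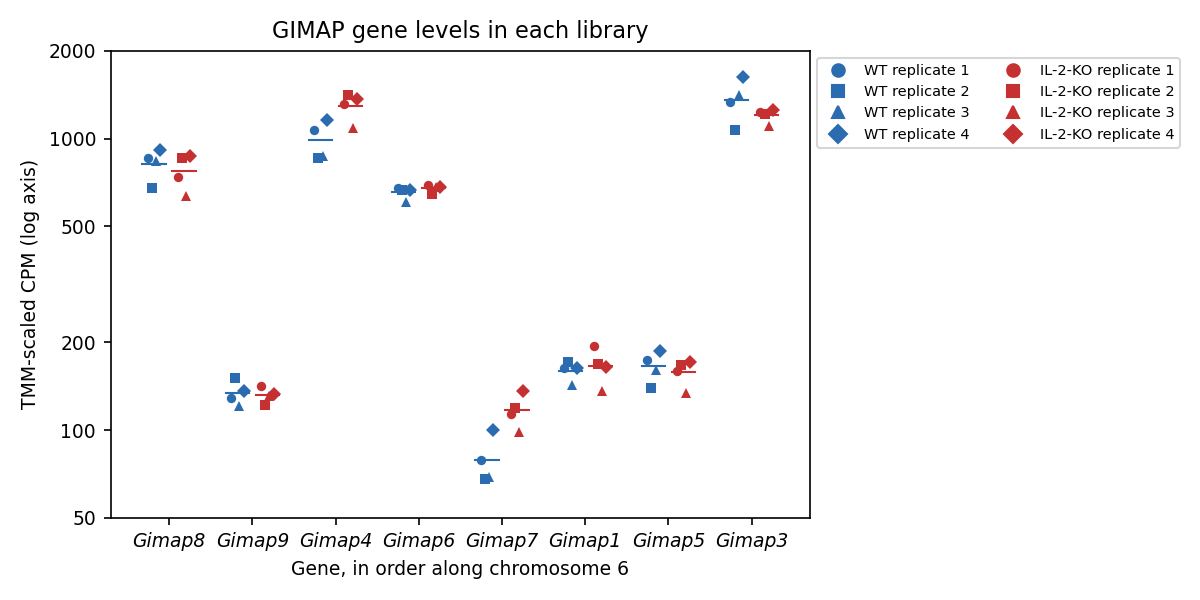
TMM-scaled CPM (log axis) of the 8 GIMAP genes in each WT (blue) and IL-2-KO (red) library, with marker shapes for replicates and lines at group means. Gimap7 and Gimap4 stand higher in most IL-2-KO libraries, and the groups overlap for each of the 8 genes.

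Gimap1, required for mature lymphocytes, held 163, 171, 142 and 164 CPM in WT replicates 1 to 4. IL-2-KO replicates 1 to 4 held 194, 168, 136 and 164 CPM, a range that includes all the WT values. Its log2 change was 0.04 (interval -0.20 to 0.28, limma adjusted p = 0.83). Of its 3073 exonic bases 1107 lie antisense to Gimap1os, and short stretches of Gimap1, Gimap5 and Gimap7 (198, 153 and 81 bases) lie in exons of the annotated read-through gene Gm28053. The sources used here do not give the strand setting of the counting, so Gimap1 reads cannot be told apart from those of its antisense partner.

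Gimap6, a binding partner of the autophagy protein encoded by Gabarapl2, was the steadiest member. WT replicates 1 to 4 held 679, 665, 606 and 667 CPM, and IL-2-KO replicates 1 to 4 held 691, 645, 683 and 684 CPM. The spread between libraries was 5.00% of the mean in WT and 3.07% in IL-2-KO, the smallest coefficients of variation among the 8 members in both groups. The log2 change was 0.05 (interval -0.11 to 0.21, limma adjusted p = 0.683), which corresponds to 0.927-fold to 1.15-fold.

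Gimap8, the longest member with a coding sequence of 2064 bases against 873 to 984 for the others, held 856, 679, 837 and 911 CPM in WT replicates 1 to 4. IL-2-KO replicates 1 to 4 held 738, 858, 635 and 872 CPM, and the lowest library of each group was WT replicate 2 and IL-2-KO replicate 3. Its log2 change was -0.08 (interval -0.37 to 0.20, limma adjusted p = 0.684). Gimap9 held 129, 151, 121 and 136 CPM in WT replicates 1 to 4 and 141, 122, 131 and 133 CPM in IL-2-KO replicates 1 to 4. Its groups overlapped almost completely, with a log2 change of -0.02 (interval -0.20 to 0.16, limma adjusted p = 0.885).

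Per length, in CPM per kilobase of annotated exon, Gimap4 and Gimap3 were the highest members in WT (538 ± 81.2 and 527 ± 88.6), and their values did not differ beyond the spread. They ranked 29 and 30 of 11512 genes with a length. Gimap8 (222 ± 27.0) and Gimap6 (187 ± 9.35) followed and overlapped each other. Gimap9 (81.8 ± 7.68) stood above Gimap1 (52.1 ± 4.05), and Gimap5 (39.8 ± 4.78) and Gimap7 (34.0 ± 6.37) overlapped at the lower end. In IL-2-KO Gimap4, at 704 ± 78.0, stood above Gimap3, at 466 ± 25.2, in every library, and Gimap7, at 50.2 ± 6.68, stood above Gimap5, at 38.1 ± 4.03. With the longest transcript as the length the WT order of Gimap3 (633 ± 106) and Gimap4 (548 ± 82.7) was turned, and Gimap1 (99.2 ± 7.71) stood level with Gimap9 (97.0 ± 9.11). Within 1 gene the choice of length changes no comparison between groups.

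Taken as shares of the family's total per exon length, Gimap4 made up 31.9% ± 1.81 (SD, n = 4) in WT and 39.1% ± 1.51 in IL-2-KO. Gimap3 made up 31.2% ± 2.61 and 26.0% ± 0.839, Gimap7 2.01% ± 0.165 and 2.79% ± 0.203, and Gimap5 2.37% ± 0.0579 and 2.12% ± 0.0626. Gimap8 made up 13.2% ± 0.669 and 11.6% ± 0.881. These values are a description with no test: shares sum to 100%, so a higher share of Gimap4 lowers the others, and no share over all genes stands beside them. The sum of the 8 genes, 3796 to 4941 CPM in WT and 4012 to 4779 in IL-2-KO, overlapped between the groups and amounted to 0.379% to 0.494% of listed counts.

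**Figure D3:**
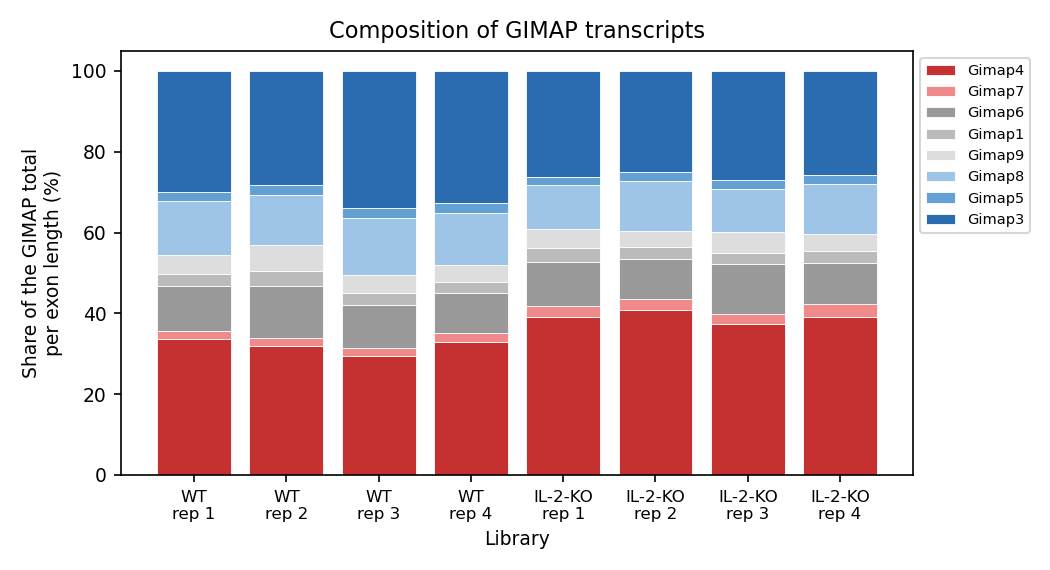
Share of each GIMAP gene in the family's total per exon length (CPM per kilobase, in percent) in each of the 8 libraries. Gimap4 (red) takes 29.5% to 33.6% in WT and 37.3% to 40.9% in IL-2-KO, and Gimap3 (dark blue) 28.3% to 34.0% and 25.1% to 27.1%.

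Ratios between members within a library do not depend on the scaling of libraries, and are given here as a description. The ratio of Gimap4 to Gimap3, in CPM, was 0.803, 0.802, 0.618 and 0.714 in WT replicates 1 to 4. It was 1.07, 1.16, 0.981 and 1.09 in IL-2-KO replicates 1 to 4. Every IL-2-KO library lay above every WT library, including WT replicate 2 and IL-2-KO replicate 3, and the log2 ratio differed by 0.55 between the groups. The ratio of Gimap7 to Gimap3 was 0.0592, 0.0636, 0.0491 and 0.0617 in WT replicates 1 to 4 and 0.0922, 0.0979, 0.0890 and 0.109 in IL-2-KO replicates 1 to 4, a difference of 0.73 on the log2 scale with no overlap.

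The same held for both genes against Gimap5. The Gimap4 to Gimap5 ratio ran from 5.41 to 6.22 in WT and from 7.93 to 8.46 in IL-2-KO, and the Gimap7 to Gimap5 ratio from 0.430 to 0.537 and from 0.709 to 0.793. Among 28 pairs of members the ratios of 7 did not overlap between groups, and each of the 7 set Gimap4 or Gimap7 against another member. These ratios were singled out after the levels were seen and carry no test, and 7 of 28 lies within the range of shares over all genes, so nothing particular to the family is read from the count. Over all genes, the ratio to Gimap3 did not overlap for 13.9% of all other genes tested, the ratio to Gimap5 for 14.7%, to Gimap8 for 13.8%, to Gimap9 for 17.1%, to Gimap1 for 13.1%, to Gimap6 for 22.2%, to Gimap4 for 37.3% and to Gimap7 for 45.9%, and the levels themselves for 24.2% of genes. No member's level was free of overlap.

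**Figure D4:**
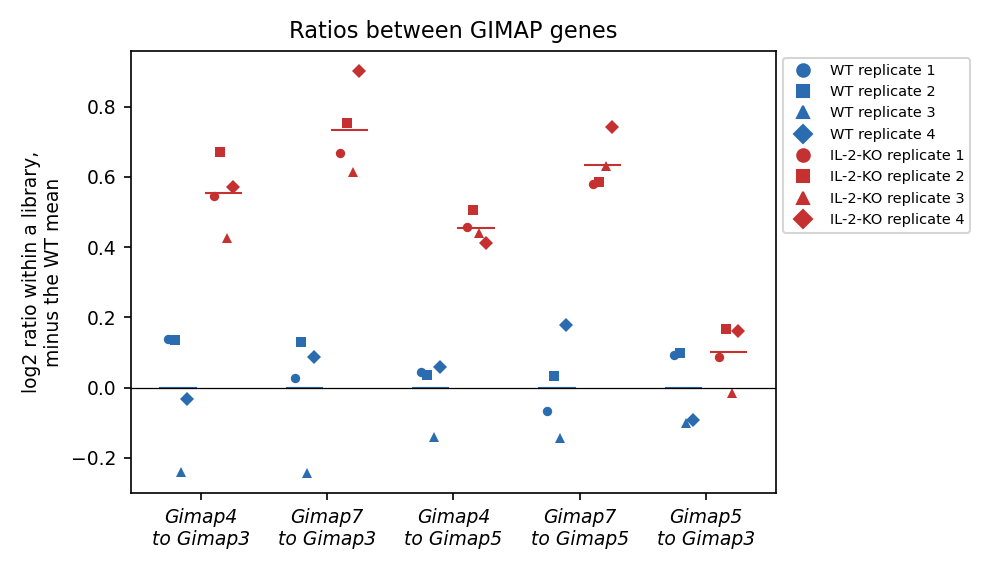
Log2 ratio of pairs of GIMAP genes within each library, minus the WT mean of that pair, for WT (blue) and IL-2-KO (red) replicates with lines at group means. The first 4 pairs do not overlap between the groups, and the Gimap5 to Gimap3 ratio does.

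The difference between the log2 changes of Gimap4 and Gimap3, a pair picked because it differed, was 0.54 once GC content and length trends were taken out, 0.47 in the libraries of over 2 M cells, 0.63 in those of under 2 M and 0.66 with array weights. Transcript GC content was 43.3% for Gimap4, 48.1% for Gimap7, 51.0% for Gimap3 and 46.8% for Gimap5.

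Some members also followed each other from library to library. Pearson's r over the 8 libraries is given here as a description, and the points share library scaling. For Gimap4 and Gimap7 r was 0.96, and 0.90 after subtraction of each group's mean. For Gimap5 and Gimap8 it was 0.96 in both cases (0.957 and 0.955), and for Gimap3 and Gimap5 0.835 and 0.848. Gimap4 and Gimap5 were related mainly within groups (0.435, and 0.931 after subtraction). Gimap6 and Gimap9 had r of 0.578 with each other. The r of Gimap8 and Gimap9 was negative (-0.464), and Gimap1 had no r above 0.527 with any other member. No r for pairs of other genes stands beside these values, so none is read as particular to the family. Gimap3, Gimap4, Gimap5, Gimap7 and Gimap8 each had their lowest WT value in WT replicate 2 and their lowest IL-2-KO value in IL-2-KO replicate 3, the libraries with the myeloid transcripts. For Gimap4 and Gimap7 WT replicate 3 was close (871 and 69.15 CPM, against 856 and 67.84 in WT replicate 2). Gimap1 and Gimap9 had their highest WT value in WT replicate 2, and Gimap1 also had its lowest IL-2-KO value in IL-2-KO replicate 3 (136 CPM).

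The mean log2 level of the 8 members was compared with each of 9061 other genes at a mean of 10 CPM or more. The 5 most alike over the 8 libraries were Cnp (r = 0.937), Rrp12 (0.930), Cdc37, which encodes a kinase co-chaperone (0.922), Dpf2 (0.918) and Prmt5, an arginine methyltransferase gene (0.908). These r values are the highest of 9061 over only 8 libraries. None of these 5 genes passed in the comparison of the groups. Nothing is read from that, because they were picked for following a mean that overlapped between the groups (8.31 to 8.59 in WT and 8.35 to 8.61 in IL-2-KO).

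Calls among the genes around the cluster went in both directions. Of 22 listed genes within 1 Mb of the cluster 3 were higher, 2 lower and 17 did not pass. The 22.7% called is near the 19.2% of all genes tested, so the count is no result about the neighbours. Their median log2 change was -0.09. Their summed level was 898.5 to 955.5 CPM in WT and 843 to 883.1 CPM in IL-2-KO, with no overlap. The largest part of that sum was Tra2a, at 263 to 337 CPM in WT and 243 to 289 CPM in IL-2-KO. The difference in the sum was not tested. Sspo, at 0.567 ± 0.764 CPM in WT and 3.66 ± 2.02 in IL-2-KO, had a log2 change of 2.09 (limma adjusted p = 0.0099), and Zfp467, a zinc finger gene, rose from 3.35 ± 0.900 to 7.89 ± 2.28 CPM (log2 change 1.12, adjusted p = 0.00955). Both are low, and the Sspo change depends on the pseudocount, at 3.11 with 0.1 and 1.12 with 2 in place of 0.5. Zfp282 rose by 0.44 on the log2 scale, while Zfp777 fell by 0.30 and Repin1, the nearest gene called, fell by 0.46. With IL-2-KO replicate 3 and WT replicate 2 left out only Sspo and Zfp467 passed. Tmem176b, which lies after Gimap3, stood at 9.78 CPM in WT replicate 2 and 18.1 in IL-2-KO replicate 3 against 1.17 to 3.17 in the other libraries.

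**Figure D5:**
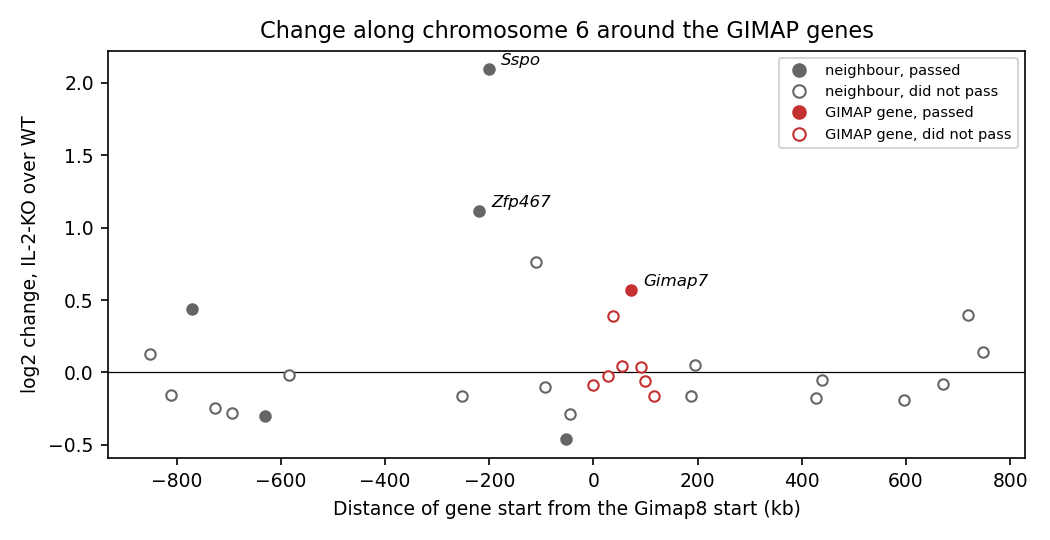
Log2 change of IL-2-KO over WT against the distance of each gene's start from the Gimap8 start (kb), for the 8 GIMAP genes (red) and 22 neighbours within 1 Mb (grey); filled points passed the test. Gimap7 is the GIMAP gene that passed, and Sspo (2.09) and Zfp467 (1.12) are the largest changes among the neighbours.

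Genes whose proteins are known to bind or act beside GIMAP proteins formed a list of 11, all tested. Of these 1 rose, 1 fell and 9 did not pass, with a median log2 change of 0.13. The share called, 18.2%, is near the 19.2% of all genes tested, so the count is no result about the list. Bcl2, the survival gene whose protein has been reported to bind Gimap5, held 183, 247, 236 and 206 CPM in WT replicates 1 to 4 and 162, 170, 161 and 191 CPM in IL-2-KO replicates 1 to 4. It fell by 0.34 on the log2 scale (limma adjusted p = 0.0414), with an overlap of WT replicate 1 and IL-2-KO replicate 4. Gabarapl1, of the autophagy protein family that includes the partner of Gimap6, rose from 7.83 ± 1.55 to 12.4 ± 3.00 CPM with no overlap (log2 change 0.62, adjusted p = 0.0425). Each of these 2 calls was lost in 11 of 22 alternatives, among them the replicate block (adjusted p = 0.0804 for Bcl2 and 0.0675 for Gabarapl1), and Bcl2 also with IL-2-KO replicate 3 and WT replicate 2 left out (-0.25, adjusted p = 0.144). Gabarapl2 itself stood at 30.6 ± 4.09 and 36.4 ± 2.95 CPM (adjusted p = 0.135), and Gsk3b, a kinase gene linked to Gimap5, at 134 ± 13.1 and 132 ± 22.7 (adjusted p = 0.894).

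The other lists place the family among the changes of these cells. Of 18 genes of naive T cell survival and homing, 8 fell, none rose and 10 did not pass, with a median log2 change of -0.33. Bcl2 is counted in this list as well as among the partners. Igfbp4 fell by 1.40 on the log2 scale, S1pr1 fell by 0.76 and Lef1 fell by 0.68, all with smaller adjusted p (limma, 2.63e-04 to 9.98e-04) than any GIMAP gene. Il7r, the interleukin-7 receptor gene, stood at 699 ± 191 and 638 ± 284 CPM (adjusted p = 0.709). Of the interferon-induced GTPase genes, another GTP-binding family of immune cells, 13 of 13 tested rose, with a median of 0.81. Cell cycle genes rose in 20 of 20 cases and cytotoxic effector genes in 8 of 14. Over all genes tested 19.2% passed, 11.1% as higher and 8.03% as lower. Of the markers of other cells, 1 of 4 natural killer genes (Klre1) and 1 of 6 CD4 and regulatory T cell genes (Ctla4) rose. None of the 3 B cell, 3 myeloid and 4 endothelial and stromal genes tested passed. Beside the share over all genes, the counts of these short marker lists are no result about the lists. The 6 CD4 and regulatory T cell genes summed to 19.7 to 96.8 CPM in WT and 74.3 to 241 in IL-2-KO. Most of the sum in each IL-2-KO library was Ctla4, at 5.79 to 30.85 CPM in WT and 51.5 to 171 in IL-2-KO. The other 5 did not pass, and Foxp3 stood lower in IL-2-KO (4.16 ± 0.269 to 2.98 ± 0.392 CPM, limma adjusted p = 0.075). The sum is therefore no measure of CD4 T cells, and the part of these genes in the results was not tested. With IL-2-KO replicate 3 and WT replicate 2 left out 8 genes of the naive list passed as lower, a count that no longer includes Bcl2, and 11 of 13 interferon-induced GTPase genes, 19 of 20 cell cycle genes and 12 of 14 effector genes were higher. In that set 1 of the 11 CD8 identity genes and 1 of the 3 B cell genes passed as lower, and 2 natural killer genes, 1 myeloid gene and 1 CD4 and regulatory T cell gene as higher. Of all 11530 genes tested in it, 1235 passed as higher and 846 as lower.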

How the data were processed

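CD8 T cell RNA of 4 WT and 4 IL-2-KO samples was sequenced. The signal values deposited by the authors are CPM, counts per 1 M of the TMM-scaled library, per the deposited table's name. Tools named in the submitters' processing notes are featureCounts, R 3.4.3 and limma 3.34.9, with builds GRCm38 and mm10; the aligner and strand setting are not given in the sources used here. Columns sum to 988292 to 1022953. TMM-scaled columns need not sum to exactly 1 M, so the values are called CPM by the table's name, and the test of the design was kept. Rescaled to counts, 54.6% to 65.0% of the low values checked per library are whole (within 0.001) and 100% are whole hundredths, so reads were shared fractionally and no count test was run. Entrez identifiers were matched to RefSeq (GRCm38.p6; 11651 of 11723), and exon lengths, transcripts and read-through genes came from GENCODE vM21. Genes at 1 CPM or more in at least 4 libraries (11530) were fitted with limma 3.58.1 in R 4.3.3 on log2(CPM + 0.5), with a mean-variance trend and Benjamini-Hochberg adjustment; fold changes are on that scale, which understates those of low genes. The steps were tested on simulated data. Members, lists and naming rule (all members and binding partners; of other lists up to 3 genes with the smallest adjusted p, given where a result turns on them; neighbours within 1 Mb; the 5 genes most alike) were chosen with earlier results of these data known. The design text calls the samples biological replicates, and p-values measure the spread between these libraries.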

Additional observations from a re-analysis of the deposited data

How the results depend on the processing

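Of 22 alternatives, the number of genes called (2211) moved to 4359 with array weights, 1397 with the replicate block, 384 without the libraries under 2 M cells, 441 without those over 2 M cells, and 1285 to 2205 with 1 replicate left out (1285 without WT replicate 3, 1351 without WT replicate 4). Higher genes made up 58.1% of calls, against 39.8% after the GC and length correction, 48.9% with quantile normalization and 51.6% with a median shift. Their share was 83.9% without the libraries under 2 M cells and 80.5% without those over 2 M cells. Members called higher were 2 with array weights (and 1 lower, Gimap3), 2 with IL-2-KO replicate 3 and WT replicate 2 left out together, 0 without the libraries over 2 M cells, 0 after the GC and length correction, and 0 to 2 with 1 replicate left out. The cause of these moves was not tested.

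Small changes turned direction. Without the libraries under 2 M cells Gimap3 was 0.0334, Gimap5 0.0641, Gimap6 -0.0089 and Gimap8 0.0618 (log2). Without those over 2 M cells Gimap1 was -0.0302 and Gimap9 0.0418. After the GC and length correction Gimap1 was -0.0614 and Gimap6 -0.0247, and Gimap9 was 0.0382 with IL-2-KO replicate 3 and WT replicate 2 left out together. With 1 replicate left out, Gimap1 ran from -0.0390 to 0.1304, Gimap5 from -0.1395 to 0.0148, Gimap8 from -0.1731 to 0.0075 and Gimap9 from -0.0692 to 0.0356. None of these passed the test.

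Same-numbered libraries had deviations correlated at 0.084, -0.530, -0.402 and 0.394. The highest correlation of any WT with any IL-2-KO library was 0.655, for WT replicate 2 and IL-2-KO replicate 3. Because these are the libraries with the myeloid transcripts, the correlations cannot decide whether samples were paired, by number or otherwise. With the replicate block Gimap7 kept its call (limma adjusted p = 0.00835) and the Gimap3 to Gimap5 ratio gave an exact p of 0.250. The ratio kept its direction in its 10 alternatives (-0.1385 to -0.0665). Sspo has no value at a minimum of 5 CPM. The GC and length correction and the set without libraries over 2 M cells were added after seeing the data. Depth did not limit the members, whose counting error was below the spread between libraries.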
